A study of Mus musculus with 4 samples.

Results

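The 10 genes described here encode UDP-glucuronosyltransferases of mouse families 1 and 2: Ugt1a1, Ugt1a6a, Ugt1a9, Ugt2a3, Ugt2b1, Ugt2b5, Ugt2b34, Ugt2b35, Ugt2b36 and Ugt2b38. They were taken from a list of gene names and are 10 of the 22 Ugt genes among the 25655 genes of the deposited table. All 10 were found and all 10 passed edgeR's filter on low counts. In the comparison of HFD-KO with HFD-WT livers, 0 of the 10 passed at an adjusted p under 0.05 by edgeR. The summed level of the 10 genes was 3096 and 3036 CPM (counts scaled to a common library size) in HFD-WT replicates 1 and 2, and 3299 and 2822 CPM in HFD-KO replicates 1 and 2, so the HFD-KO libraries lay on either side of both HFD-WT libraries. Ugt1a6a was lower in both HFD-KO libraries and was the only member with an unadjusted p under 0.05.

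Liver poly(A) RNA was sequenced in 4 libraries, 2 of HFD-WT and 2 of HFD-KO male mice, after 12 weeks of a high-fat diet (HFD) begun at 5 weeks of age. HFD-WT mice were ADAR2 +/+ and HFD-KO mice were ADAR2 -/-, lacking an adenosine deaminase that edits adenosine to inosine in RNA. Both genotypes were GluR-B R/R, an allele that carries the edited form of a glutamate receptor subunit and averts the early death of mice without ADAR2, and both came from crosses of heterozygous animals kept on a B6129S background. A legend of the study counts more mice per group than there are libraries, and how mice were assigned to libraries is not given in the sources used here, so p values measure the spread between these libraries, which may be technical. No library of mice on normal diet was analysed here.

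UDP-glucuronosyltransferases are membrane enzymes of the endoplasmic reticulum that transfer glucuronic acid from UDP-glucuronic acid to small lipophilic molecules, which can then leave the cell in bile or blood. Liver is a main site of this reaction, whose substrates include bilirubin, steroid hormones, bile acids, thyroid hormone and many drugs. Enzymes of the Ugt1a group are made from 1 locus in which alternative first exons, each with its own promoter, are spliced to the same downstream exons, whereas each Ugt2 gene of the liver set has its own exons.

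This arrangement bears on what a count per gene can show, and the sequences that carry it are shown first. In GENCODE M21 on GRCm38, the 3 Ugt1a members each had 1 exon of their own and 4 exons in common, and the common exons held 1311 bases of each transcript. The lines below give the last 30 bases of the own exon in lower case, followed across the splice junction by the first 30 bases of the common exon in capitals, which starts at 88215044 on chromosome 1 (plus strand). The own exon ends at 88212871 for Ugt1a1, at 88139331 for Ugt1a6a and at 88071678 for Ugt1a9.
Ugt1a1: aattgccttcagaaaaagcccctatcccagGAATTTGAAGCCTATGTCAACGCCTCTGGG
Ugt1a6a: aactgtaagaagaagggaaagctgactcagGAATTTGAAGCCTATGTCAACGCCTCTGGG
Ugt1a9: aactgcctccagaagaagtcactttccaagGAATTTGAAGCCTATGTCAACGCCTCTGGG

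The capitals are identical in the 3 members, so a read that lies wholly downstream of the junction carries no letter that tells them apart. The common exons made up 58.9% of the Ugt1a1 transcript, 57.9% of Ugt1a6a and 59.9% of Ugt1a9. Of all stretches of 100 bases, the read length of the study, 57.2% in Ugt1a1 and 58.5% in Ugt1a9 also occurred in a transcript of another gene. In Ugt1a6a this share was 97.7%, because the annotation also assigns transcripts with its exon to Ugt1a7c. How the authors' counting divided such reads among genes is not given in the sources used here, so the counts of single Ugt1a genes are uncertain to that extent.

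A further pair of near copies lies within each locus. The coding sequences of Ugt1a6a and Ugt1a6b, the latter not among the 10 genes, differed at 26 of 1593 bases (98.4% identity), and those of Ugt2b5 and Ugt2b38 differed at 47 of 1590 bases (97.0% identity). The 60-base stretches below lie in coding exons and were chosen because they hold many of the differences, 9 in each pair, and capitals mark the bases that differ within the pair. They lie on GRCm38 at chr1:88138769-88138828 (Ugt1a6a, plus strand), chr1:88107237-88107296 (Ugt1a6b, plus strand), chr5:87125280-87125339 (Ugt2b5, minus strand) and chr5:87410275-87410334 (Ugt2b38, minus strand).
Ugt1a6a: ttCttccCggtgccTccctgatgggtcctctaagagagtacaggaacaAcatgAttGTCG
Ugt1a6b: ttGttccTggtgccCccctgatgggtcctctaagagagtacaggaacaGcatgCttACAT
Ugt2b5: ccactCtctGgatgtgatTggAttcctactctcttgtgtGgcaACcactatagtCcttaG
Ugt2b38: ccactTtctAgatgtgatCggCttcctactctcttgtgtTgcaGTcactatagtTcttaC

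Stretches of 100 bases found in another gene's transcript made up 24.7% of Ugt2b5 and 24.2% of Ugt2b38, 0.407% of Ugt2b34 and 0.595% of Ugt2a3. None were found in Ugt2b1, Ugt2b35 or Ugt2b36. These last 3 genes thus shared no exact stretch of the read length with another gene's annotated transcript. Matches that allow mismatches were not examined, and the coding sequences of Ugt2b35 and Ugt2b36 were 88.5% identical.

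**Figure D1:**
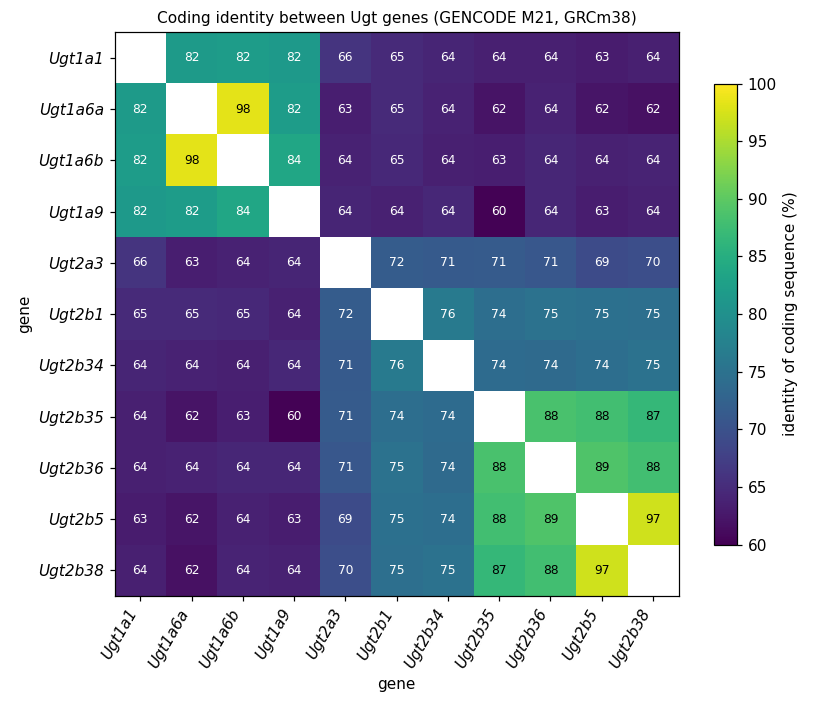
Each cell gives the share of aligned coding bases that are identical between the row gene and the column gene, in percent, for the 10 Ugt genes and Ugt1a6b (GENCODE M21, GRCm38). The pairs Ugt1a6a with Ugt1a6b (98.4%) and Ugt2b5 with Ugt2b38 (97.0%) stand above every other pair drawn.

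Total counts per library were between 24480798 and 28691330, at which 3 counts correspond to between 0.105 and 0.123 CPM, a floor that covers counting error only. CPM values use the library size adjusted by the TMM method, and differences are log2 fold changes of HFD-KO over HFD-WT from edgeR's quasi-likelihood test, two-sided, adjusted by Benjamini-Hochberg over the 12967 genes tested. With 2 libraries per group an exact permutation test of 1 gene cannot give a p below 0.333, and the p values here draw on variance that edgeR estimates from all genes jointly. Adarb1, the gene of ADAR2, had 15.7 and 19.8 CPM in HFD-WT and 6.23 and 9.55 CPM in HFD-KO (log2 fold change -1.17, SE 0.20, adjusted p = 0.159). It was lower in HFD-KO, with reads left in each of those libraries. HFD-KO replicate 1 held more B cell transcript than the other libraries (8 markers summing to 126 CPM against 15.7 to 19.4 CPM). HFD-KO replicate 2 had the largest sum of the hepatocyte markers (10 markers, 96579 CPM against 80318 to 81244 CPM). Alb made up most of this sum, with 66104 CPM there against 52676 to 54900 CPM in the other libraries. Apoa1, Ttr and Tat were higher in HFD-KO replicate 1, and the other markers of the list were highest in HFD-KO replicate 2.

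Levels between genes were compared on the authors' TPM, which divides counts by transcript length. Ugt2b5, with a mean of 681 TPM over the 4 libraries (range 615 to 758), Ugt2b36 with 635 TPM (584 to 654) and Ugt1a1 with 609 TPM (598 to 630) were the most abundant, and neighbours in this order overlapped in range. A middle group held Ugt2b34 at 181 TPM (158 to 190) and Ugt2b1 at 172 TPM (157 to 209), which overlapped, then Ugt2a3 at 136 TPM (127 to 150). Ugt1a6a at 111 TPM (91.9 to 124) and Ugt2b35 at 95.3 TPM (88.1 to 102) overlapped in turn. Ugt1a9 followed at 56.3 TPM (27.6 to 81.7), and Ugt2b38 was the least abundant at 1.04 TPM (0.780 to 1.25). The near copies Ugt2b5 and Ugt2b38 thus stood at opposite ends of the order.

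The member with the most reads in the Ugt1a locus was Ugt1a1 (ENSMUSG00000089960, GRCm39 chromosome 1, 88139681 to 88146719, plus strand), whose enzyme conjugates bilirubin. It had 704 and 662 CPM in HFD-WT and 698 and 683 CPM in HFD-KO. Both HFD-KO values lay between the HFD-WT values. The log2 fold change was 0.02 (SE 0.090, 95% interval -0.20 to 0.23, adjusted p = 0.976).

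Ugt1a6a (ENSMUSG00000054545, GRCm39 chromosome 1, 88062531 to 88146719, plus strand) encodes an enzyme for small planar phenols. Its level was 149 and 145 CPM in HFD-WT and 131 and 112 CPM in HFD-KO. The groups did not overlap, and the difference was larger than the spread within either group. The log2 fold change was -0.27 (SE 0.096, 95% interval -0.50 to -0.05), 17.3% lower, with an unadjusted p of 0.0234 and an adjusted p of 0.473. The fold change was negative in all 10 alternative analyses of single genes, from -0.39 to -0.17, but its call depended on the libraries. Without HFD-WT replicate 1 the fold change was -0.26 and without HFD-WT replicate 2 it was -0.29. Without HFD-KO replicate 2 it was -0.17, and without HFD-KO replicate 1 it was -0.39.

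Its near copy Ugt1a6b (GRCm39 chromosome 1, 88030974 to 88146725) showed values of the same kind, 180 and 181 CPM in HFD-WT against 160 and 147 CPM in HFD-KO (log2 fold change -0.23, SE 0.083, unadjusted p = 0.0246, adjusted p = 0.475). Of the stretches of 100 bases in Ugt1a6a, 68.7% also occurred in a transcript of Ugt1a6b, so reads can be shared by this pair. With the counts of both genes summed, an alternative added after the data were seen, the levels were 329 and 327 CPM in HFD-WT and 291 and 259 CPM in HFD-KO. The summed difference was -0.25 on the log2 scale (SE 0.091, unadjusted p = 0.0265, adjusted p = 0.482).

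Ugt1a9 (ENSMUSG00000090175, GRCm39 chromosome 1, 87998522 to 88146719, plus strand), another enzyme for phenols, varied most among the abundant members. It had 64.4 and 87.7 CPM in HFD-WT and 66.1 and 30.9 CPM in HFD-KO, from 1866, 2412, 1739 and 739 counts. HFD-KO replicate 1 lay within the HFD-WT range and HFD-KO replicate 2 below it. The log2 fold change was -0.65 (SE 0.31, 95% interval -1.38 to 0.09, unadjusted p = 0.0755, adjusted p = 0.608). The value depended on which HFD-KO library was kept: without HFD-KO replicate 1 it was -1.30, and without HFD-KO replicate 2 it was -0.20.

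**Figure D2:**
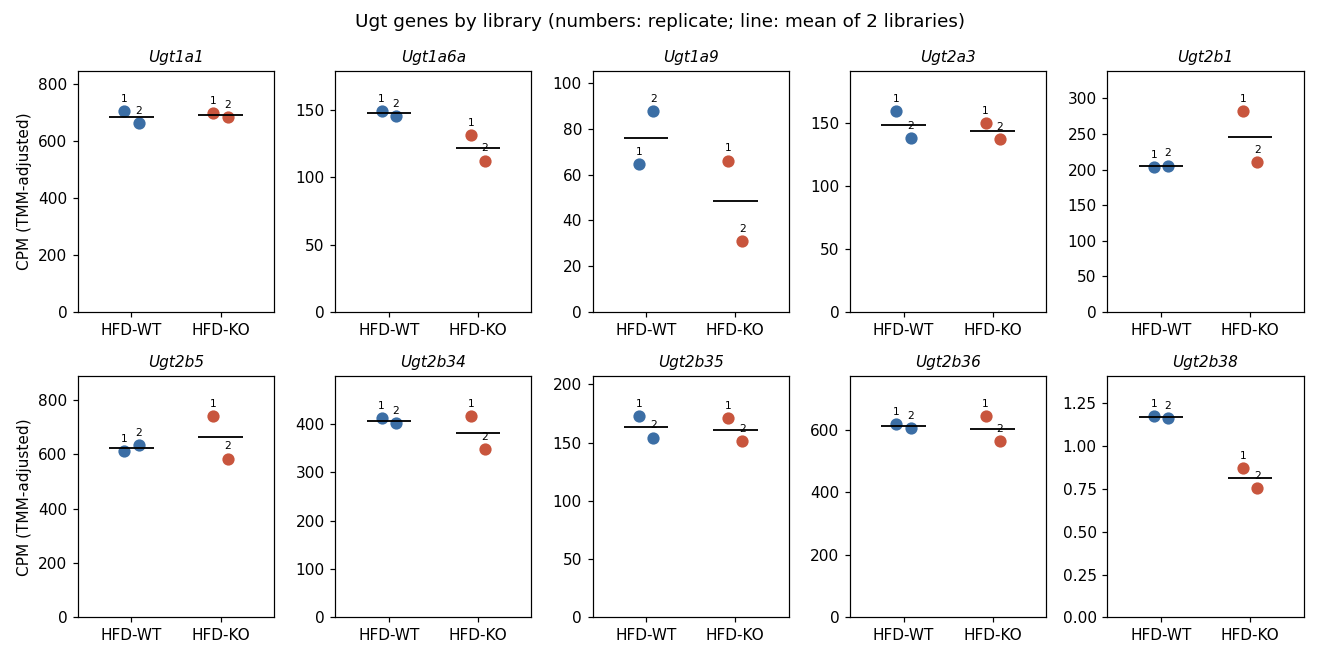
Each panel plots 1 Ugt gene in CPM on the TMM-adjusted library size, with 2 HFD-WT libraries in blue and 2 HFD-KO libraries in red, the replicate number beside each point and the group mean as a line, on an axis that starts at 0. Only Ugt1a6a, Ugt2b38 and Ugt2b1 have groups that do not overlap. Of all genes tested, 20.3% had both HFD-KO libraries below both HFD-WT libraries and 20.5% had both above. In Ugt1a9 HFD-KO replicate 2 (30.9 CPM) stands below the other 3 libraries (64.4 to 87.7 CPM).

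Within the Ugt1a locus the counts were divided in the same order of size for the 3 leading genes in every library. Ugt1a1 took 60.9% and 57.4% of the Ugt1a counts in HFD-WT and 62.1% and 66.1% in HFD-KO. Ugt1a6b took 15.6% and 15.7% against 14.2% and 14.2%, and Ugt1a6a 12.9% and 12.6% against 11.7% and 10.9%. Ugt1a1 thus had the larger share, and both Ugt1a6 genes the smaller share, in the HFD-KO libraries, as a description without a test. Ugt1a9 took 5.58% and 7.61% in HFD-WT and 5.88% and 2.99% in HFD-KO, and Ugt1a5 between 4.47% and 5.87%. Summing the 9 Ugt1a genes gave 1155 and 1153 CPM in HFD-WT and 1124 and 1034 CPM in HFD-KO (log2 fold change -0.10, SE 0.098, 95% interval -0.33 to 0.13, adjusted p = 0.811). The sum does not depend on how common reads were divided if each was counted once, which is not known.

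**Figure D3:**
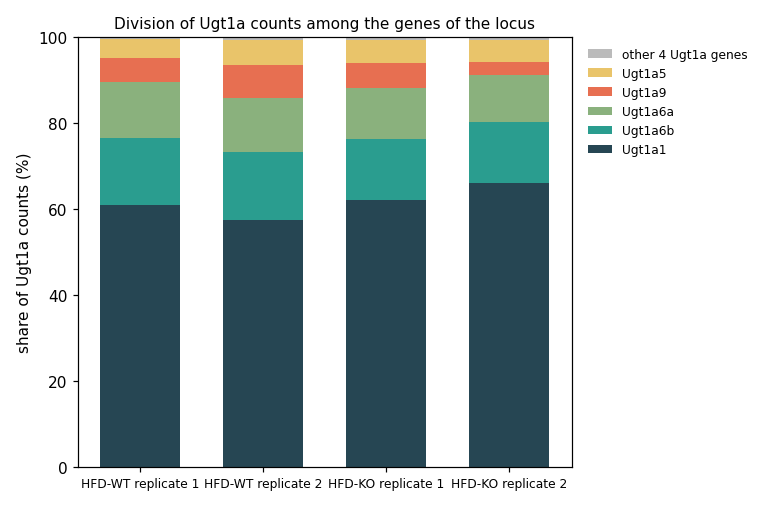
Each bar divides all counts on the 9 Ugt1a genes of 1 library into shares in percent, with a bar for each of the 4 libraries. Ugt1a1 holds between 57.4% and 66.1%, and the Ugt1a9 share is smallest in HFD-KO replicate 2 (2.99%).

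The Ugt2 members lie on chromosome 5, and Ugt2b enzymes act on steroids, bile acids and drugs. Ugt2b1 (ENSMUSG00000035836, GRCm39 87064497 to 87074389, minus strand) had 203 and 205 CPM in HFD-WT and 282 and 211 CPM in HFD-KO. Both HFD-KO values lay above both HFD-WT values, but HFD-KO replicate 2 only narrowly. The log2 fold change was 0.27 (SE 0.13, 95% interval -0.05 to 0.59, unadjusted p = 0.0830, adjusted p = 0.622). Without HFD-KO replicate 2 it was 0.46, and without HFD-KO replicate 1 it was 0.04.

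Ugt2b5 (ENSMUSG00000054630, GRCm39 87272819 to 87288177, minus strand) had 611 and 634 CPM in HFD-WT and 740 and 584 CPM in HFD-KO. The HFD-KO libraries were the highest and the lowest of the 4. Its log2 fold change was 0.09 (SE 0.12, 95% interval -0.20 to 0.38, adjusted p = 0.868). The near copy Ugt2b38 (ENSMUSG00000061906, GRCm39 87557801 to 87572062, minus strand) had low counts that were above the floor, with 1.17 and 1.16 CPM in HFD-WT and 0.874 and 0.754 CPM in HFD-KO, from 34, 32, 23 and 18 counts. Both HFD-KO values were below both HFD-WT values, but the interval was wide (log2 fold change -0.52, SE 0.34, 95% interval -1.31 to 0.27, adjusted p = 0.696). Ugt2b5 had 17683, 17432, 19477 and 13955 counts in the same libraries. Whether reads counted on Ugt2b38 came from Ugt2b5 was not tested. With the counts of both genes summed, an alternative added after the data were seen, the log2 fold change was 0.09 (SE 0.12, adjusted p = 0.870).

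Ugt2b36 (ENSMUSG00000070704, GRCm39 87213786 to 87240414, minus strand) had 620 and 606 CPM in HFD-WT and 644 and 563 CPM in HFD-KO, a log2 fold change of -0.02 (SE 0.100, 95% interval -0.26 to 0.21). Ugt2b35 (ENSMUSG00000035811, GRCm39 87148719 to 87161134, plus strand) had 173 and 154 CPM in HFD-WT and 171 and 151 CPM in HFD-KO, also a log2 fold change of -0.02 (SE 0.098, 95% interval -0.25 to 0.21). In both genes the replicates of a group differed more than the group means. The adjusted p was 0.969 for each.

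Ugt2b34 (ENSMUSG00000029260, GRCm39 87037626 to 87054796, minus strand) had 412 and 402 CPM in HFD-WT and 416 and 348 CPM in HFD-KO, a log2 fold change of -0.09 (SE 0.106, 95% interval -0.34 to 0.16, adjusted p = 0.842). Ugt2a3 (ENSMUSG00000035780, GRCm39 87472831 to 87485054, minus strand), whose human counterpart conjugates bile acids, had 159 and 138 CPM in HFD-WT and 150 and 137 CPM in HFD-KO, a log2 fold change of -0.05 (SE 0.099, 95% interval -0.28 to 0.18, adjusted p = 0.920). The groups overlapped in both genes. Summed over the 7 Ugt2b genes of the table, the level was 2020 and 2004 CPM in HFD-WT and 2255 and 1859 CPM in HFD-KO (log2 fold change 0.03, SE 0.12, adjusted p = 0.963).

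Of the 10 members, 0 were higher and 1 was lower at an unadjusted p under 0.05 by edgeR, where 4.25% of all genes tested were higher and 4.73% were lower, and DESeq2's Wald test gave the same counts. At an adjusted p under 0.05 the count was 0 of 10 by edgeR, against 0.0771% of all genes (7 higher and 3 lower). DESeq2 also gave 0 of 10 at that threshold, with 57 genes higher and 60 lower in the whole table. With library size alone as the scaling, 346 genes of the table were higher and 894 lower at an unadjusted p under 0.05, against 551 and 613 with TMM. Both HFD-KO libraries lay below both HFD-WT libraries in 2 members and above them in 1, against 20.3% and 20.5% of all genes. These counts lie near those shares. The median log2 fold change was -0.04 over the 10 members and 0.01 over all genes tested, with 3 members positive and 7 negative. The 95% intervals of 7 members, all but Ugt1a9, Ugt2b1 and Ugt2b38, stayed within 0.50 of 0 on the log2 scale.

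Among the other 12 Ugt genes of the table, 7 passed the filter, of which 1 was higher and 2 lower (unadjusted p under 0.05) and 0 passed at an adjusted p. Ugt3a1, whose family uses other sugars than glucuronic acid, had 104 and 98.2 CPM in HFD-WT and 127 and 117 CPM in HFD-KO (log2 fold change 0.27, SE 0.084, unadjusted p = 0.0130, adjusted p = 0.414). Ugt3a2 had 349 and 348 CPM against 392 and 359 CPM (log2 fold change 0.11, SE 0.087). The lower genes were Ugt1a6b, given above, and Ugt1a10, with 1.07 and 2.73 CPM in HFD-WT and 0.798 and 0.754 CPM in HFD-KO (log2 fold change -1.28, SE 0.49, unadjusted p = 0.0328). Ugt1a5, Ugt1a7c and Ugt2b37 had log2 fold changes of -0.05, 0.34 and -0.26, none with an unadjusted p under 0.05. Ugt1a2, Ugt1a8, Ugt2a1, Ugt2a2 and Ugt8a, of which Ugt2a1 had 0 counts, were at or near the floor and were not tested.

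**Figure D4:**
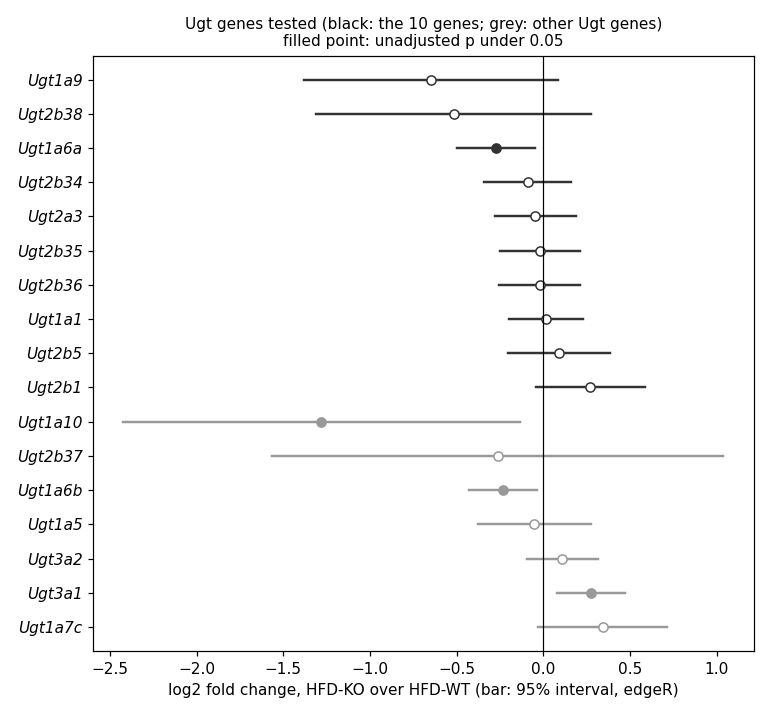
Points give the log2 fold change of HFD-KO over HFD-WT by edgeR and bars its 95% interval, for the 10 Ugt genes in black and the other 7 Ugt genes tested in grey, filled where the unadjusted p is under 0.05. Among the 10 genes only the interval of Ugt1a6a (-0.50 to -0.05) leaves out 0, and Ugt1a9 and Ugt2b38 have the widest intervals.

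The reaction depends on UDP-glucuronic acid, and genes on both sides of the conjugation step were read from lists compiled by hand with earlier results of these data known. The list for UDP-glucuronic acid supply held 13 genes. It also held genes that use UDP-glucuronic acid or handle other nucleotides and nucleotide sugars. Of the 13, 0 were higher and 2 lower (unadjusted p under 0.05), with a median log2 fold change of -0.07, and 0 passed at an adjusted p. Ugdh, UDP-glucose dehydrogenase, which makes UDP-glucuronic acid, had 207 and 219 CPM against 191 and 159 CPM (log2 fold change -0.29, SE 0.105, unadjusted p = 0.0284, adjusted p = 0.487). The other lower gene, Pgm2, had a log2 fold change of -0.45 (SE 0.18). In both genes the 2 HFD-KO libraries lay below both HFD-WT libraries. This held for 7 of the 13 genes of the list, not all of them genes of supply, and for 20.3% of all genes tested.

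After conjugation, glucuronides can be split again or exported. Of 8 genes tested for hydrolysis and glucuronate use, 0 were higher and 2 were lower: Gusb, beta-glucuronidase, with 37.1 and 40.4 CPM in HFD-WT and 32.2 and 26.3 CPM in HFD-KO (log2 fold change -0.41, SE 0.114, unadjusted p = 0.0085), and Cryl1, gulonate dehydrogenase (log2 fold change -0.37, SE 0.101). Of 8 transporter genes, 1 was higher and 3 were lower. Slco1a1, a hepatic uptake transporter of organic anions, had 18.5 and 17.9 CPM in HFD-WT and 59.3 and 58.0 CPM in HFD-KO and was the only gene around the conjugation step to pass at an adjusted p (log2 fold change 1.69, SE 0.083, adjusted p = 0.0013). Abcc4, Abcg2 and Slco1a4 had log2 fold changes of -0.89, -0.26 and -0.23. The list for the formation of bilirubin, the substrate of Ugt1a1, held 4 heme oxygenase and biliverdin reductase genes, not all of which make bilirubin itself. Of these, 0 were higher and Hmox1, heme oxygenase, was lower, at 35.5 and 32.9 CPM against 27.9 and 29.9 CPM (log2 fold change -0.24, SE 0.087, unadjusted p = 0.0256). The most abundant genes of that list, Blvrb and Hmox2, had log2 fold changes of -0.17 (SE 0.077) and -0.03 (SE 0.100).

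**Figure D5:**
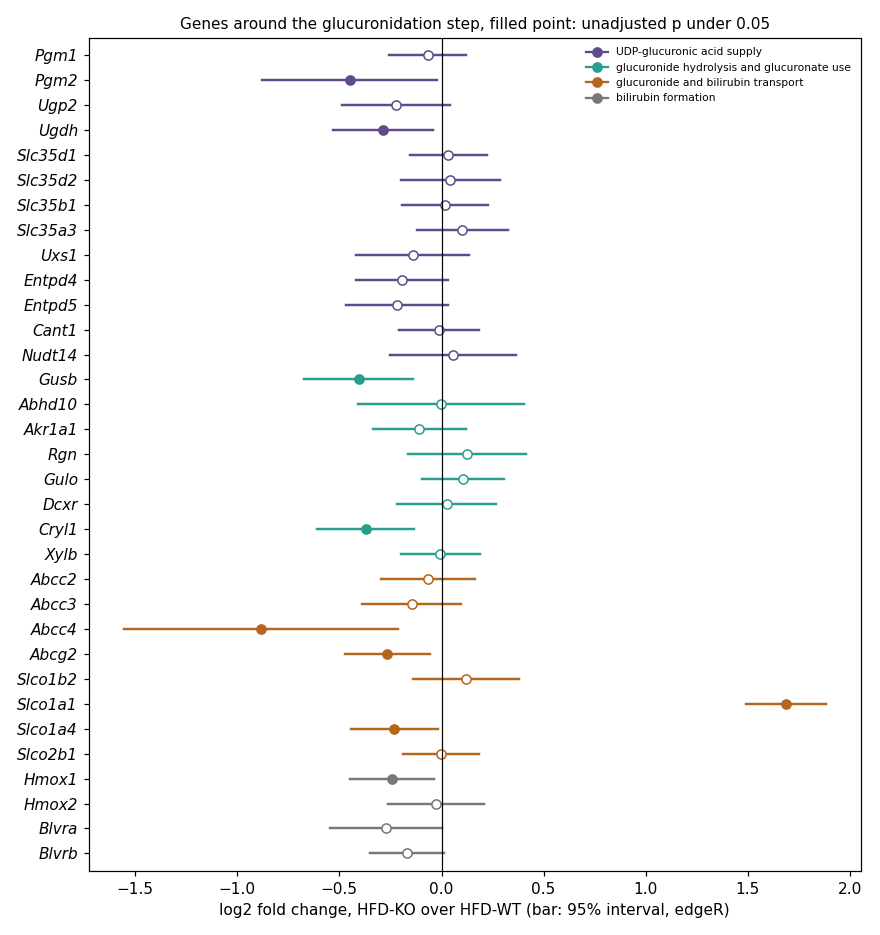
Points give the log2 fold change of HFD-KO over HFD-WT by edgeR and bars its 95% interval, filled where the unadjusted p is under 0.05. The tested genes are those of the lists for UDP-glucuronic acid supply, glucuronide hydrolysis and glucuronate use, transport, and bilirubin formation. Slco1a1 (1.69) is the only filled point to the right of 0, and Abcc4 (-0.89) lies farthest to the left.

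Ugt genes are known targets of several nuclear receptors and stress factors, and these were read the same way. Of 21 genes listed for the control of Ugt genes, most of them transcription factors, 2 were higher and 1 was lower at an unadjusted p under 0.05. Nr1i2, the pregnane X receptor PXR, had 108 and 114 CPM in HFD-WT and 81.0 and 90.1 CPM in HFD-KO (log2 fold change -0.38, SE 0.089, unadjusted p = 0.0034, adjusted p = 0.271). Stat5a had a log2 fold change of 0.29 (SE 0.083). Cux2 was counted as higher through HFD-KO replicate 2 alone, at 10.4 CPM against 0.327 to 0.483 CPM in the other 3 libraries.

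Among genes that share these regulators with Ugt genes, 1 of 11 CAR and PXR targets was higher and 4 were lower, with a median log2 fold change of -0.25. Cyp3a11, the main PXR-induced cytochrome P450, had 1546 and 1263 CPM in HFD-WT and 691 and 831 CPM in HFD-KO (log2 fold change -0.88, SE 0.14, adjusted p = 0.115). Alas1 and Cyp2b10 had log2 fold changes of -0.47 and -1.60, and Gadd45b of 1.17. Of 11 NRF2 targets tested, 0 were higher and 6 were lower, with a median of -0.28, and 2 passed at an adjusted p: the glutathione transferases Gstm3 (log2 fold change -1.35, adjusted p = 0.0235) and Gsta1 (-1.77, adjusted p = 0.0288). Gstm1 and Srxn1 followed at -0.60 and -0.34. Of 4 AHR targets tested, 0 were higher and 0 were lower, with Cyp1a2 at 0.29 (SE 0.17) and Tiparp at -0.08 (SE 0.19). Of 12 PPAR alpha targets, 2 were higher, Acot1 (0.51) and Cyp4a14 (0.50), and 0 were lower. Whether any of these lists bears on the level of a Ugt gene was not tested.

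The tissue was read as liver from its markers: the 10 hepatocyte markers summed to between 80318 and 96579 CPM, 1 was higher (Serpina1c, log2 fold change 0.45) and 0 were lower. Alb and Apoa1, the most abundant of them, had log2 fold changes of 0.13 (SE 0.20) and 0.16 (SE 0.125). In bulk RNA, fewer cells of a type and less RNA per cell cannot be told apart. Of 15 Kupffer cell and macrophage markers, 9 were lower and 0 higher (summed level 562 and 700 CPM against 476 and 433 CPM), among them Vsig4 (log2 fold change -0.63), Mpeg1 (-0.55), Cd5l (-0.62) and C1qc (-0.53). Of 10 hepatic stellate cell markers, 5 were lower and 0 higher (397 and 446 CPM against 352 and 267 CPM), among them Col1a1 (-0.87), Reln (-0.53), Col3a1 (-0.57) and Dcn (-0.43). Of 10 endothelial markers 1 was lower (Lyve1, -0.70), with the most abundant, Stab2 and Stab1, at -0.02 and -0.29. Of 7 cholangiocyte markers 1 was lower (Spp1, -0.62), with Sox9 next in abundance at -0.11. Of 6 erythrocyte markers 3 were higher (758 and 601 CPM against 811 and 1147 CPM), namely Hbb-bs (0.62), Hba-a1 (0.58) and Hba-a2 (0.51). Of 8 B cell and plasma cell markers 3 were higher, Ighm (2.39), Jchain (1.97) and Igkc (1.93), each highest in HFD-KO replicate 1. Of 6 T cell markers 1 was higher (Lck, 1.19), with Cd4 at 0.55. The T cell markers summed to 3.25 and 4.25 CPM in HFD-WT and to 9.88 and 3.39 CPM in HFD-KO, so HFD-KO replicate 2 lay within the HFD-WT range. Intestine and kidney, which also express Ugt genes, were represented by 10 markers of which 4 had 0 counts in all libraries and 3 were tested, with 1 lower (Apoa4, which hepatocytes also express, -0.52) and Fabp2 at -0.03. The part of these cell types in the Ugt levels was not tested.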

How the data were processed

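The authors extracted liver RNA with TRIzol, made directional libraries, sequenced paired reads of 100 bases on a DNBSEQ-G400RS, aligned them to mm10 and counted genes of a GENCODE annotation in Partek Genomics Suite. The deposited gene positions are those of GRCm39. The authors' counts are whole numbers per gene without normalization and were the only values tested. The authors' TPM was used to compare levels between genes, the authors' RPKM was not used, and the deposited CPM, a score whose sum differs from the CPM definition, was not used either.

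Groups came from the sample labels. The main test was the quasi-likelihood test of edgeR 4.0.16 (filterByExpr, TMM) in R 4.3.3, with 12967 genes tested together. The fit was tested on simulated data. Common biological variation was 0.102 (coefficient) with 5.34 prior degrees of freedom, and replicates differed by more than counting error (chi-square per degree of freedom 10.3 in HFD-WT and 41.0 in HFD-KO). DESeq2 1.42.0, other scalings and filters, each library left out, a replicate block and summed near copies were alternatives. The SE and p value of a fit with 1 library left in a group assume that this group varies like the other. Sequences were read with Biopython 1.88 from GENCODE M21 on GRCm38, with all 10 genes matched, and plots were drawn with matplotlib 3.10.9.

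The members and gene lists were chosen with earlier results of these data known. Genes named were the 10 members, the other Ugt genes, Adarb1 and, of each other list, up to 4 genes with the smallest p among those with an unadjusted p under 0.05, or, with fewer than 2 such genes, also the 2 with the highest mean CPM. A result for 1 gene of the lists is not reported here.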

Additional observations from a re-analysis of the deposited data

How the results depend on the processing

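Of 99 alternative values of the 10 single genes, 80 kept both their direction and their side of an unadjusted p of 0.05, 7 passed it newly, 3 no longer passed it (all Ugt1a6a) and 9 changed sign, each from a value near 0. These were Ugt1a1 with library size alone (-0.030) and without HFD-WT replicate 2, Ugt2a3 and Ugt2b35 without HFD-WT replicate 1 or HFD-KO replicate 2, Ugt2b34 and Ugt2b36 without HFD-KO replicate 2, and Ugt2b5 without HFD-KO replicate 1. With a library left out, the log2 fold change ranged from -0.026 to 0.055 for Ugt1a1, from -0.148 to 0.055 for Ugt2a3, from -0.090 to 0.249 for Ugt2b5, from -0.226 to 0.031 for Ugt2b34, from -0.112 to 0.062 for Ugt2b35 and from -0.121 to 0.070 for Ugt2b36. Ugt2b38 was not tested where a mean of 1 CPM was required. With no filter on low counts, 1 member was higher (Ugt2b1) and 2 were lower (Ugt1a6a and Ugt1a9) at an unadjusted p under 0.05. In the same setting 698 genes of the whole table were higher and 789 lower. With each library omitted in turn, 0 to 2 members were higher and 0 to 3 lower at an unadjusted p, and 0 to 1 higher and 0 to 2 lower at an adjusted p. The counts of 2 higher and of 1 higher came without HFD-KO replicate 2, those of 3 lower and of 2 lower without HFD-KO replicate 1, and 0 were lower without HFD-WT replicate 2 or HFD-KO replicate 2. Over all genes, the 551 higher and 613 lower genes at an unadjusted p became 304 and 372 with DESeq2's Wald test, 346 and 894 with library size alone, and 255 to 1095 higher and 207 to 1078 lower with a library left out. The 7 higher and 3 lower genes at an adjusted p became 81 and 81 with no filter, 57 and 60 with DESeq2, 4 higher with library size alone, 4 higher with a mean of at least 1 CPM, and 0 to 376 higher and 0 to 329 lower with a library left out. HFD-WT replicate 2 gave the lowest and HFD-KO replicate 1 the highest of these counts when left out. Each fit without a library left 1 library in a group, so its p values took the spread from the other group. The cause of the differences between these counts was not tested.

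The groups share replicate numbers, but the labels name no pairing and deviations of same-numbered libraries were not alike (Pearson's r = -0.0872 across genes). With the replicate block, 12 genes were higher and 8 lower at an adjusted p, and the members' counts were 0 higher and 1 lower at an unadjusted p as before. Library size alone moved the median of all genes by -0.0459 on the log2 scale. With it, genes listed for UDP-glucuronic acid supply and lower at an unadjusted p numbered 4 in place of 2. Those listed for bilirubin formation numbered 3 in place of 1. At 18 to 34 counts per library, depth limits Ugt2b38 most.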

Other observations

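Liver expresses many genes by sex and by position along the lobule, and both kinds were read from lists compiled with earlier results of these data known. Of 10 male-biased genes, 3 were higher and 0 lower at an unadjusted p under 0.05 by edgeR, with a median log2 fold change of 0.27, and 0 passed at an adjusted p. Hsd3b5, a steroid dehydrogenase gene, had 0.483 and 0.473 CPM in HFD-WT and 25.8 and 2.51 CPM in HFD-KO, so its level differed between the HFD-KO libraries as well as between the groups. Cyp7b1, an oxysterol hydroxylase gene, had 43.5 and 43.4 CPM in HFD-WT and 86.8 and 53.4 CPM in HFD-KO. Nudt7 had a log2 fold change of 0.39 (SE 0.12).

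Of 7 female-biased genes tested, 2 were higher and 2 were lower, with a median log2 fold change of -0.25. Cyp2a4, a steroid hydroxylase gene, had 21.2 and 18.9 CPM in HFD-WT and 9.95 and 7.37 CPM in HFD-KO (log2 fold change -1.21, SE 0.15, adjusted p = 0.0578). Cyp2b9 was also lower (-0.25), and Acot3 (0.59) and Cux2 were higher.

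Of 10 periportal hepatocyte markers, 3 were lower and 0 higher: Aldh1b1 (log2 fold change -0.44), Hsd17b13 (-0.43) and Sds (-0.55). Of 10 pericentral markers, 1 was higher, Tbx3, with 36.7 and 35.5 CPM in HFD-WT and 54.2 and 54.5 CPM in HFD-KO (log2 fold change 0.59, SE 0.080, adjusted p = 0.0693), and 0 were lower. Glul and Cyp2e1, the pericentral markers most used, had log2 fold changes of -0.06 and 0.06. Of 6 markers of exocrine pancreas 1 was tested, Cela1, with a log2 fold change of 0.09.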
